A study of Homo sapiens with 12 samples.

Results

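The genes described here are targets of NRF2, the transcription factor that drives the antioxidant response, read on expression arrays of gastric cancer cell lines. The list held 7 genes chosen by symbol: HMOX1, TALDO1, NQO1, GCLC, GCLM, SRXN1 and TXNRD1. A transcript cluster, the unit in which the array gives its levels, was annotated to 4 of the 7, namely HMOX1, TALDO1, SRXN1 and TXNRD1, with 1 cluster each. NQO1, GCLC and GCLM were not analysed here. All 4 measured genes passed the filter on low values and were among the 8930 genes tested, of 14884 symbols in all.

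Transcript levels came from 12 Affymetrix Human Gene 2.0 ST arrays of the established human gastric cancer cell lines SNU601, MKN1 and AGS. Each line was given JK139, JK136, Rhosin or DMSO, with 1 array for each line and treatment. Rhosin is a small molecule that inhibits the GTPase RhoA, DMSO is the solvent control, and the labels name JK139 and JK136 by code only. The labels give neither doses nor exposure times. A treatment therefore had 3 arrays, 1 from each line, and a line had 4, 1 from each treatment. The p-values measure the spread between these arrays and not the spread between cultures of 1 line. Levels are log2 signals, so a difference of 1 is a doubling of signal, and levels of different genes are not compared.

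NRF2, encoded by NFE2L2, is held low in unstressed cells by KEAP1, an adaptor that brings it to a CUL3 ubiquitin ligase for degradation. Oxidants and electrophiles modify KEAP1, NRF2 then accumulates, pairs with small MAF proteins and binds antioxidant response elements near its target genes. The targets restore thiols, supply NADPH and handle heme and iron, and many tumours keep this programme active. HMOX1 encodes heme oxygenase 1, which breaks down heme and is also repressed by BACH1. TXNRD1 is the cytosolic thioredoxin reductase, a selenoprotein that reduces thioredoxin with NADPH. SRXN1, sulfiredoxin, repairs over-oxidised peroxiredoxins, and TALDO1, transaldolase, works in the non-oxidative branch of the pentose phosphate pathway.

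Promoter windows are shown for TXNRD1 and TALDO1, because these genes differed in opposite directions between MKN1 and AGS. Each window runs from 250 bases before to 50 bases after a RefSeq transcript start on GRCh38.p14, 5′ to 3′. Both TXNRD1 windows lie on the plus strand, the upstream start at chr12:104215529-104215828 and the downstream start at chr12:104286782-104287081, and the TALDO1 window lies on the plus strand at chr11:747214-747513. Capitals mark the core of the antioxidant response element, TGACNNNGC, searched on both strands, and a match on the minus strand is printed as its reverse complement.
TXNRD1 upstream start: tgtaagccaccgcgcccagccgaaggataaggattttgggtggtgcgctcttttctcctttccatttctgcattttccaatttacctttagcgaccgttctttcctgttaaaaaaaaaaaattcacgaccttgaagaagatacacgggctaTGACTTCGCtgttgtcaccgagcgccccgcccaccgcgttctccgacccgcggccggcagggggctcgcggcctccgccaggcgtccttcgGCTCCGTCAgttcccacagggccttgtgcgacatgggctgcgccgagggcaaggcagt
TXNRD1 downstream start: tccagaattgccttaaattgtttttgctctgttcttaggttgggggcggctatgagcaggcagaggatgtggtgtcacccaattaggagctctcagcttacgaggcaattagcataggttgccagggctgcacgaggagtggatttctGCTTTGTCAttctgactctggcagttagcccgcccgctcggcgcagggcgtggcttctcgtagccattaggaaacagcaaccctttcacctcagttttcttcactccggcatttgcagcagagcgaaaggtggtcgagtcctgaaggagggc
TALDO1: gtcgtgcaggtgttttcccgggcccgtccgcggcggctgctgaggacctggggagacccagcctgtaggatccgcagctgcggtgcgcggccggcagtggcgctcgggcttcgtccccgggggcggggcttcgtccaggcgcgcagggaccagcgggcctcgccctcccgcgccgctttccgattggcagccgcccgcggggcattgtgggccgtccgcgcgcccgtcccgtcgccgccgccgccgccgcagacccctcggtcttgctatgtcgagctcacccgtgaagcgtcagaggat
The upstream TXNRD1 window held 2 matches, TGACTTCGC on the plus strand at positions -99 to -91 and TGACGGAGC on the minus strand at -8 to 1, counted from the transcript start. The downstream TXNRD1 window held 1 match, TGACAAAGC on the minus strand at -102 to -94. The TALDO1 window and the SRXN1 window held none, which says only that these letters are not in these windows. Of all 35116 RefSeq promoter windows of this length, 4687 (13.3%) held TGACNNNGC. Windows were found for 6 of the 7 listed genes, and HMOX1 is named only. None of the windows of the measured genes held TGACTCA, the AP-1 motif, which 4.95% of all windows held. A match is a description of the sequence and not evidence of binding.

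The cell lines were well separated on these arrays. Over all clusters, Pearson's r was 0.978 to 0.988 between arrays of 1 line and 0.927 to 0.960 between arrays of different lines. The summed log2 level of 8 epithelial markers was 67.9 to 68.7 in SNU601, 52.4 to 53.1 in MKN1 and 65.1 to 66.7 in AGS. In MKN1 the markers GRHL2 and ESRP1 averaged 3.98 and 4.11, below the filter value of 4.61, and EPCAM averaged 6.49 there, against 10.19 in SNU601 and 10.04 in AGS. The keratins KRT8, KRT18 and KRT19 were higher in MKN1 than in AGS, by 0.40, 1.11 and 1.46. So 3 of the 8 markers were higher and 5 lower, against 35.3% and 31.0% of all tested genes. Markers of other cell types had a cluster for 5 of 12 genes, and their summed level was 24.2 to 25.6 in SNU601, 26.2 to 27.0 in MKN1 and 22.2 to 24.7 in AGS. Among these, the endothelial markers PECAM1 and VWF were below the filter value in all 3 lines, and the muscle marker DES averaged 5.85 in SNU601, 5.52 in MKN1 and 6.02 in AGS. The macrophage marker CD68 averaged 8.33 in SNU601, 8.65 in MKN1 and 6.14 in AGS, while CD14, also a macrophage marker, averaged 3.46 in SNU601, 4.67 in MKN1 and 3.33 in AGS and did not pass the filter on its mean. Of 6 tested housekeeping genes (14 listed), 5 were higher and 1 lower between MKN1 and AGS (median log2 difference 0.47), 2 and 0 between SNU601 and AGS (0.13), and 1 and 2 between SNU601 and MKN1 (-0.16). The part of these differences in the comparisons of the members was not tested.

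The first comparison asks how the NRF2 targets differ between the lines, with the 4 treatments matched. TXNRD1 was lower and HMOX1 higher in AGS than in both other lines. TALDO1 differed between all 3 lines, being highest in SNU601 and lowest in MKN1. SRXN1 passed the test only between SNU601 and AGS, by a small margin. In limma, with Benjamini-Hochberg adjustment over all tested genes and an adjusted p under 0.05 called, 3 of the 4 members were called between MKN1 and AGS, where 66.3% of all tested genes were. Between SNU601 and AGS 4 of 4 were called, against 52.7% of all genes, and between SNU601 and MKN1 1 of 4, against 63.4%. The counts are over 4 genes, so they do not set the members apart from the other genes.

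**Figure D1:**
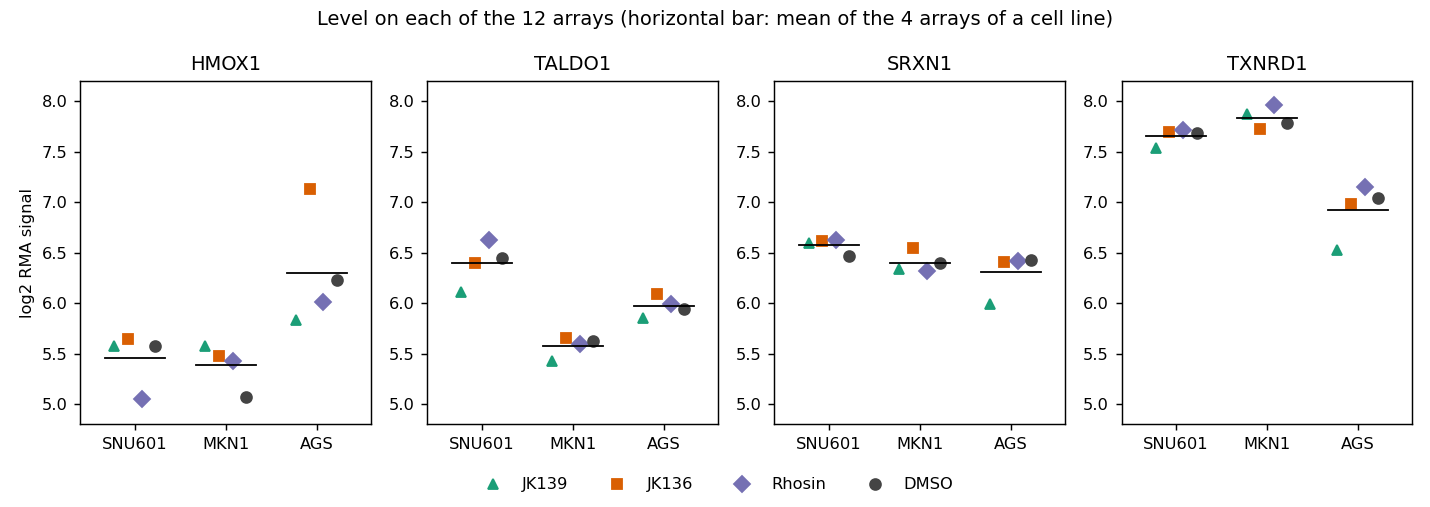
Log2 level (vertical axis) of HMOX1, TALDO1, SRXN1 and TXNRD1 on each of the 12 arrays, by cell line (horizontal axis), with points by treatment and a bar at the mean of the 4 arrays of a line. The AGS arrays lie above the other lines for HMOX1 and below them for TXNRD1, and the 3 lines do not overlap for TALDO1.

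HMOX1 in SNU601 was 5.58 with JK139, 5.65 with JK136, 5.05 with Rhosin and 5.57 with DMSO. In MKN1 it was 5.57 with JK139, 5.48 with JK136, 5.43 with Rhosin and 5.07 with DMSO. In AGS it was 5.83 with JK139, 7.13 with JK136, 6.02 with Rhosin and 6.23 with DMSO. Every AGS array lay above every array of the other lines, while SNU601 and MKN1 overlapped, and the AGS array given JK136 was the highest of all 12. Mean levels were 5.46 ± 0.28 in SNU601, 5.39 ± 0.22 in MKN1 and 6.30 ± 0.58 in AGS (SD, n = 4 each). HMOX1 was 1.88-fold lower in MKN1 than in AGS, a log2 difference of -0.91 ± 0.19 (SE; limma adjusted p = 0.00126). It was 1.79-fold lower in SNU601 than in AGS, a log2 difference of -0.84 ± 0.19 (limma adjusted p = 0.00317). Each gap at 1 treatment rests on 1 array per line. Between MKN1 and AGS it was -0.26 with JK139, -1.65 with JK136, -0.59 with Rhosin and -1.16 with DMSO. SNU601 and MKN1 differed by 0.07 (95% interval -0.35 to 0.50; limma adjusted p = 0.754).

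TXNRD1 in SNU601 was 7.54 with JK139, 7.70 with JK136, 7.71 with Rhosin and 7.69 with DMSO. In MKN1 it was 7.87 with JK139, 7.72 with JK136, 7.96 with Rhosin and 7.79 with DMSO. In AGS it was 6.53 with JK139, 6.98 with JK136, 7.15 with Rhosin and 7.04 with DMSO. All 4 AGS arrays lay below the 8 others, and within AGS the JK139 array was the lowest. Mean levels were 7.66 ± 0.08 in SNU601, 7.84 ± 0.10 in MKN1 and 6.93 ± 0.27 in AGS (SD, n = 4 each). TXNRD1 was 1.88-fold higher in MKN1 than in AGS, by 0.91 ± 0.10 on the log2 scale (limma adjusted p = 7.39e-06). It was 1.66-fold higher in SNU601 than in AGS, by 0.73 ± 0.10 (limma adjusted p = 7.96e-05). Both gaps had the same sign in all 4 treatments, 0.74 to 1.34 for MKN1 and 0.56 to 1.01 for SNU601. SNU601 lay below MKN1 by a difference of -0.18 that did not pass the test (95% interval -0.40 to 0.05; limma adjusted p = 0.151).

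TALDO1 in SNU601 was 6.11 with JK139, 6.40 with JK136, 6.63 with Rhosin and 6.44 with DMSO. In MKN1 it was 5.43 with JK139, 5.66 with JK136, 5.60 with Rhosin and 5.62 with DMSO. In AGS it was 5.86 with JK139, 6.09 with JK136, 5.99 with Rhosin and 5.94 with DMSO. No arrays of 2 lines overlapped, and in each line the JK139 array was the lowest. Mean levels were 6.40 ± 0.21 in SNU601, 5.58 ± 0.10 in MKN1 and 5.97 ± 0.10 in AGS (SD, n = 4 each). TALDO1 was 1.76-fold higher in SNU601 than in MKN1, by 0.82 ± 0.08 on the log2 scale (limma adjusted p = 3.26e-06). It was also higher in SNU601 than in AGS, by 0.43 ± 0.08 (limma adjusted p = 0.000927). MKN1 was lower than AGS, with a log2 difference of -0.39 ± 0.08 (limma adjusted p = 0.00124), with -0.43 to -0.32 over the 4 treatments. Its gap between MKN1 and AGS kept 1 sign at every treatment.

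SRXN1 in SNU601 was 6.60 with JK139, 6.61 with JK136, 6.63 with Rhosin and 6.47 with DMSO. In MKN1 it was 6.34 with JK139, 6.54 with JK136, 6.32 with Rhosin and 6.39 with DMSO. In AGS it was 5.99 with JK139, 6.40 with JK136, 6.42 with Rhosin and 6.43 with DMSO. SNU601 lay above AGS on every array, MKN1 overlapped both, and the AGS array given JK139 stood below the other 3 of its line. Mean levels were 6.58 ± 0.07 in SNU601, 6.40 ± 0.10 in MKN1 and 6.31 ± 0.21 in AGS (SD, n = 4 each). SRXN1 was 1.20-fold higher in SNU601 than in AGS, by 0.26 ± 0.10 on the log2 scale (limma adjusted p = 0.0366). That call was lost without the JK139 arrays, where the difference was 0.15 (limma adjusted p = 0.248), and under 9 of the other alternatives tried. With the DMSO arrays alone the gap was 0.04. The difference was 0.09 between MKN1 and AGS (95% interval -0.12 to 0.30) and 0.18 between SNU601 and MKN1 (95% interval -0.03 to 0.39), with limma adjusted p of 0.446 and 0.129.

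**Figure D2:**
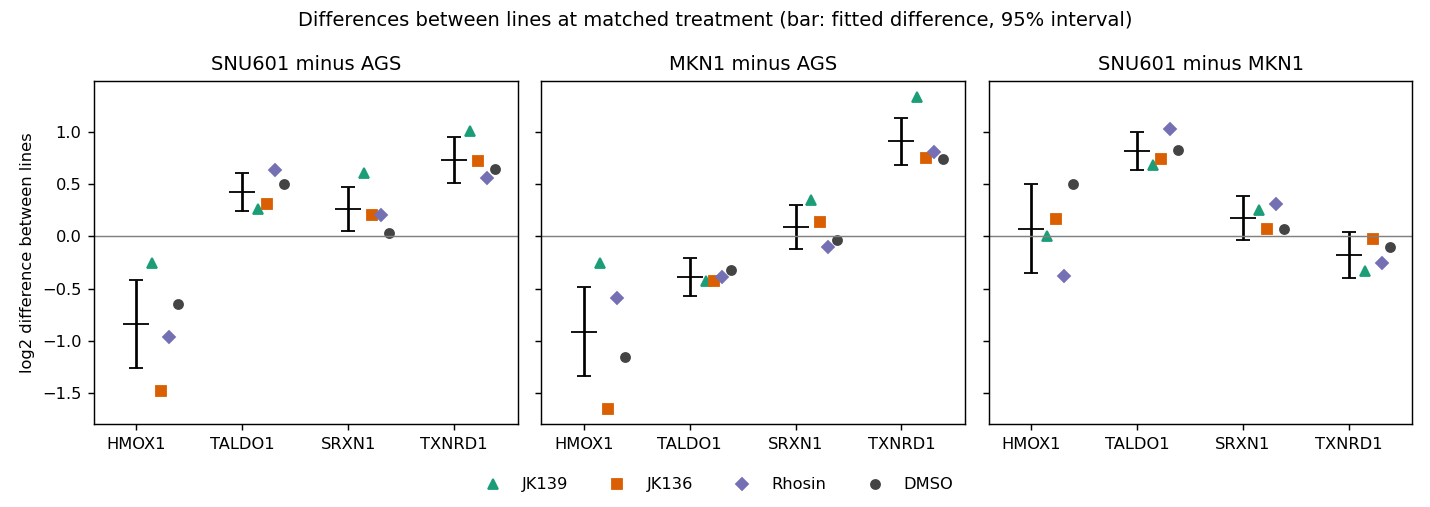
Log2 difference between lines (vertical axis) for each member (horizontal axis), 1 panel per pair of lines, with a bar at the limma difference and its 95% interval and a point for each matched treatment. HMOX1 has differences of -0.91 and -0.84 for MKN1 and SNU601 against AGS, while TXNRD1 has 0.91 and 0.73.

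The lines did not order the members alike. AGS was the line with the most HMOX1 and the least TXNRD1, MKN1 had the least TALDO1, and SNU601 had the most TALDO1 and SRXN1 by mean level. Between MKN1 and AGS, 1 member was higher and 2 were lower, against 35.3% and 31.0% of all tested genes. The median difference of the 4 members was -0.15 there, against 0.02 over all tested genes. Between SNU601 and AGS, 3 were higher and 1 was lower, against 29.9% and 22.8%, and the median was 0.35 against 0.05. Between SNU601 and MKN1, 1 was higher and 0 were lower, against 32.3% and 31.1%, and the median was 0.13 against 0.02. In size, the HMOX1 difference between SNU601 and AGS exceeded that of 88.0% of tested genes and the TXNRD1 difference that of 84.4%. The SRXN1 difference there exceeded that of 49.5%.

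The second comparison asks whether Rhosin, JK136 or JK139 changed the NRF2 targets, with the 3 lines as replicates. None of the 4 members was called for any compound against DMSO. Among all 8930 tested genes, limma also called 0 (0%) for JK139, JK136 and Rhosin. At an unadjusted p under 0.05 there were 218 genes for JK139, 469 for JK136 and 560 for Rhosin. Chance alone would give 446.5 of 8930 genes. JK139 lay below that number, JK136 near it and Rhosin above it. The value with the largest size among the members was HMOX1 with JK136, and the lines differed in it.

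For JK136 against DMSO, HMOX1 differed by 0.07 in SNU601, 0.41 in MKN1 and 0.91 in AGS on the log2 scale. The mean difference was 0.46 ± 0.22 (SE; 95% interval -0.03 to 0.95; limma adjusted p = 0.902), positive in 3 of 3 lines and of larger size than that of 99.3% of tested genes. Its SE was larger than the 0.10 to 0.12 of the other members, and a rank by size takes no account of the SE. The AGS array given JK136 carried much of the HMOX1 difference, since it was 0.16 without that array and 0.24 without AGS. With array weights it was 0.29. The other members had smaller differences with JK136, 0.05 for TALDO1 (95% interval -0.16 to 0.26), 0.09 for SRXN1 (-0.15 to 0.33) and -0.04 for TXNRD1 (-0.30 to 0.22), with limma adjusted p of 0.974, 0.954 and 0.978. These intervals hold 0 and reach past 0.2 on the positive side for each of the 3 genes.

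For JK139 against DMSO, TALDO1 differed by -0.33 in SNU601, -0.19 in MKN1 and -0.08 in AGS, with a mean of -0.20 (95% interval -0.41 to 0.008). SRXN1 differed by 0.13 in SNU601, -0.05 in MKN1 and -0.44 in AGS, with a mean of -0.12 (-0.37 to 0.12). TXNRD1 differed by -0.15 in SNU601, 0.08 in MKN1 and -0.51 in AGS, with a mean of -0.19 (-0.45 to 0.07). TALDO1 was the member whose sign was shared by 3 of 3 lines, and in AGS all 4 members were at their lowest level with JK139. HMOX1 differed by 0.00 in SNU601, 0.50 in MKN1 and -0.39 in AGS, with a mean of 0.04 (-0.45 to 0.53). The limma adjusted p was 0.9999 for each of the 4 members.

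For Rhosin against DMSO, HMOX1 differed by -0.52 in SNU601, 0.36 in MKN1 and -0.21 in AGS, with a mean of -0.12 (95% interval -0.62 to 0.37; limma adjusted p = 0.938). TXNRD1 differed by 0.02 in SNU601, 0.18 in MKN1 and 0.11 in AGS, with a mean of 0.10 (-0.16 to 0.36; limma adjusted p = 0.907). TALDO1 and SRXN1 had means of 0.07 (-0.14 to 0.28) and 0.03 (-0.22 to 0.27). HMOX1 thus had no common sign over the lines with Rhosin, and TXNRD1 had 1 sign in 3 of 3. The mean of the 3 compounds against DMSO was 0.13 for HMOX1 (-0.28 to 0.53), -0.03 for TALDO1, -0.002 for SRXN1 and -0.04 for TXNRD1. For that mean limma called 0 of 8930 genes (0%). It gave 301 genes an unadjusted p under 0.05, where chance would give 446.5.

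**Figure D3:**
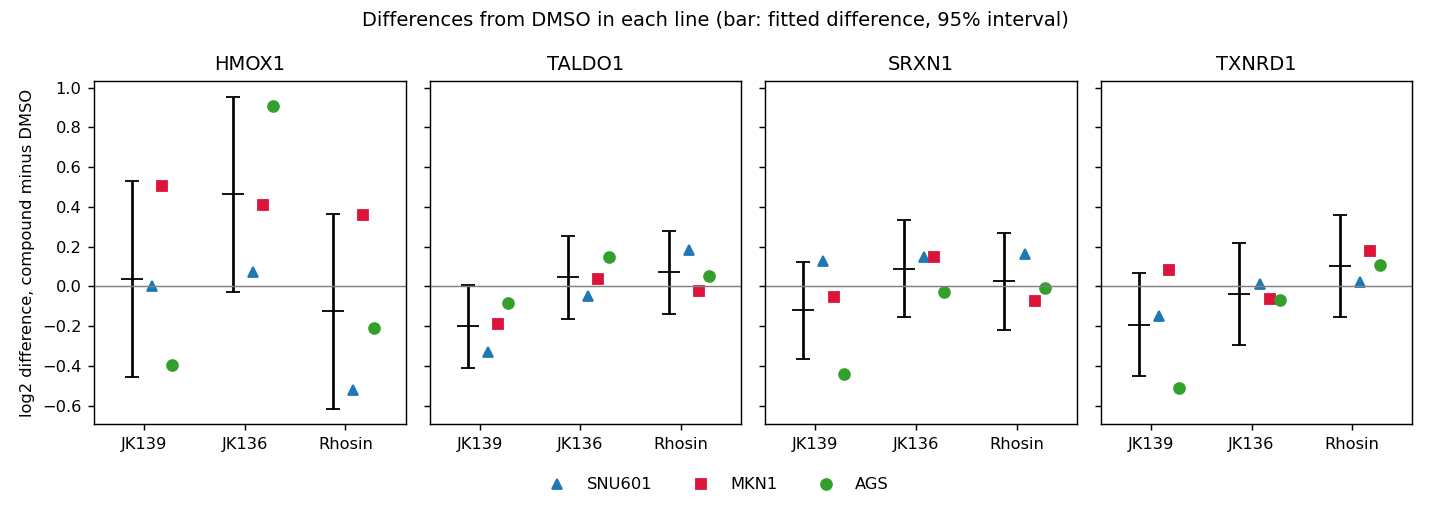
Log2 difference from DMSO (vertical axis) for each compound (horizontal axis), 1 panel per member, with a point for each line and a bar at the limma difference and its 95% interval. HMOX1 with JK136 reached 0.91 in AGS and 0.07 in SNU601, and every mean interval holds 0.

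Differences among the compounds were read in 3 pairs, with p-values adjusted over all tested genes of a pair. Whether doses and times match is not known. HMOX1 differed by 0.59 ± 0.22 between JK136 and Rhosin (SE; 95% interval 0.10 to 1.08; limma adjusted p = 0.491), with 0.60 in SNU601, 0.05 in MKN1 and 1.11 in AGS. It was 0.28 without the AGS array given JK136 and 0.33 without AGS. TALDO1 differed by -0.27 ± 0.10 between JK139 and Rhosin (-0.48 to -0.06; limma adjusted p = 0.600), with a negative sign in 3 of 3 lines. That value was -0.18 without the SNU601 array given Rhosin and -0.15 without SNU601. TXNRD1 differed by -0.29 ± 0.12 between JK139 and Rhosin (-0.55 to -0.04; limma adjusted p = 0.608), and by -0.14 without the AGS array given JK139. Between JK139 and JK136, TALDO1 differed by -0.25 ± 0.10 (-0.46 to -0.04; limma adjusted p = 0.883), at -0.28 in SNU601, -0.23 in MKN1 and -0.23 in AGS. HMOX1 there differed by -0.07 in SNU601, 0.09 in MKN1 and -1.30 in AGS, and the AGS value exceeded in size that of 99.9% of tested genes. That AGS value rests on 1 array per compound. The mean of HMOX1 over the lines was -0.43 (-0.92 to 0.07). SRXN1 had differences of -0.21 between JK139 and JK136 (-0.45 to 0.03), -0.15 between JK139 and Rhosin (-0.39 to 0.10) and 0.06 between JK136 and Rhosin (-0.18 to 0.31), all with intervals that hold 0. TALDO1 between JK136 and Rhosin had a mean difference of -0.02 (-0.23 to 0.19), with -0.23 in SNU601, 0.06 in MKN1 and 0.10 in AGS. Of these pairs, 0 of 4 members and 0 of 8930 genes (0%) were called by limma. An unadjusted p under 0.05 was found for 494 genes for JK139 against JK136, 663 for JK139 against Rhosin and 812 for JK136 against Rhosin. Chance would give 446.5 in each pair. A p that misses the threshold does not show that the compounds act alike.

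Whether the mean response to the 3 compounds, pooled against DMSO, differed between lines was tested with limma's interaction term. With 1 array per line and treatment, a difference between lines in the response to a single compound was not tested. The mean response of HMOX1 was -0.15 in SNU601, 0.42 in MKN1 and 0.10 in AGS, and that of TXNRD1 was -0.04 in SNU601, 0.07 in MKN1 and -0.16 in AGS. The test called 0 of 4 members and 0 of 8930 genes (0%), and the limma adjusted p of each member was 0.9999. At an unadjusted p under 0.05 there were 244 genes, below the 446.5 that chance would give. Cell line held 60.04% of the sum of squares of HMOX1, treatment 17.2% and the residual 22.8%. For SRXN1 line held 44.1%, for TALDO1 87.3% and for TXNRD1 87.2%, against a median of 82.0% over all tested genes. These shares are not divided by their degrees of freedom. HMOX1 and SRXN1 thus had line shares below the median, and lower ones were found for 28.0% and 18.6% of tested genes.

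The genes that govern NRF2 were compared between the lines beside the targets. These lists are given by counts and medians over few genes. Of 16 listed regulators 12 had a cluster and were tested, and BACH1 was not analysed here. NFE2L2, which encodes NRF2, averaged 7.93 ± 0.06 in SNU601, 7.71 ± 0.08 in MKN1 and 7.83 ± 0.23 in AGS (SD, n = 4 each) and passed no test. KEAP1 averaged 7.39 in SNU601, 8.09 in MKN1 and 7.03 in AGS. KEAP1 was higher in MKN1 than in AGS by 1.06 ± 0.09 (limma adjusted p = 4.51e-07) and higher in SNU601 than in AGS by 0.37 (limma adjusted p = 0.00349). AGS thus had the lowest KEAP1 level of the 3 lines, and the part of KEAP1 in the differences of its targets was not tested. NFE2L1, a related transcription factor, was higher in MKN1 than in AGS by 0.51 and lower in SNU601 than in AGS, a log2 difference of -0.52. BTRC, a ubiquitin ligase subunit that can also mark NRF2, and the corepressor TRIM28 were lower in MKN1 than in AGS, with log2 differences of -0.31 and -0.67. SQSTM1, an autophagy receptor that binds KEAP1, was higher in MKN1 and SNU601 than in AGS, by 0.25 and 0.30. DPP3, which can also bind KEAP1, and CUL3 were higher in SNU601 than in AGS by 0.64 and 0.23. In all, 3 regulators were higher and 2 lower between MKN1 and AGS, 4 and 1 between SNU601 and AGS, and 2 and 2 between SNU601 and MKN1. Their median differences were 0.07, 0.12 and 0.13 in that order, beside 0.02, 0.05 and 0.02 over all tested genes, and 0 were called with a compound. The share of regulators called was 41.7%, 41.7% and 33.3%, against 66.3%, 52.7% and 63.4% of all tested genes.

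Other known NRF2 targets gave a wider view, 20 tested genes of 46 listed. Between MKN1 and AGS 8 were higher and 8 lower, with a median of -0.12. Between SNU601 and AGS 11 were higher and 2 lower, with a median of 0.27, and between SNU601 and MKN1 11 were higher and 3 lower, with a median of 0.30. The share called was 80.0%, 65.0% and 70.0% in that order, beside 66.3%, 52.7% and 63.4% of all tested genes. GPX2, an epithelial glutathione peroxidase, was lower in MKN1 than in AGS, a log2 difference of -2.77, and higher in SNU601 than in AGS by 0.997, and its MKN1 mean of 3.63 lay below the filter value. GSTM4, a glutathione transferase, was lower in both MKN1 and SNU601 than in AGS, with log2 differences of -2.08 and -0.80. GSTA4, also a glutathione transferase, was lower in both too, with log2 differences of -1.59 and -1.13, and its MKN1 mean of 4.36 lay below the filter value. GSTM3, of the same family, was higher in both, by 0.46 and 0.98. TXN, the thioredoxin that TXNRD1 reduces, averaged 10.49 in SNU601, 10.97 in MKN1 and 9.98 in AGS. TXN was higher in MKN1 than in AGS by 0.99 ± 0.09 (SE; limma adjusted p = 7.40e-07) and in SNU601 than in AGS by 0.51, so both TXN and TXNRD1 were lowest in AGS. The housekeeping genes HPRT1 (0.92 and 0.76) and PPIA (0.54 and 0.47) were also higher in both lines than in AGS. The other tested housekeeping genes were not called between SNU601 and AGS. Between MKN1 and AGS, PGK1 (0.76), TBP (0.39) and GAPDH (0.36) were higher in MKN1 too, and B2M was lower (-0.48). With the compounds 0 of these genes were called, and the median difference from DMSO was -0.07 with JK139, -0.04 with JK136 and -0.03 with Rhosin, against -0.01, -0.02 and -0.02 over all tested genes.

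**Figure D4:**
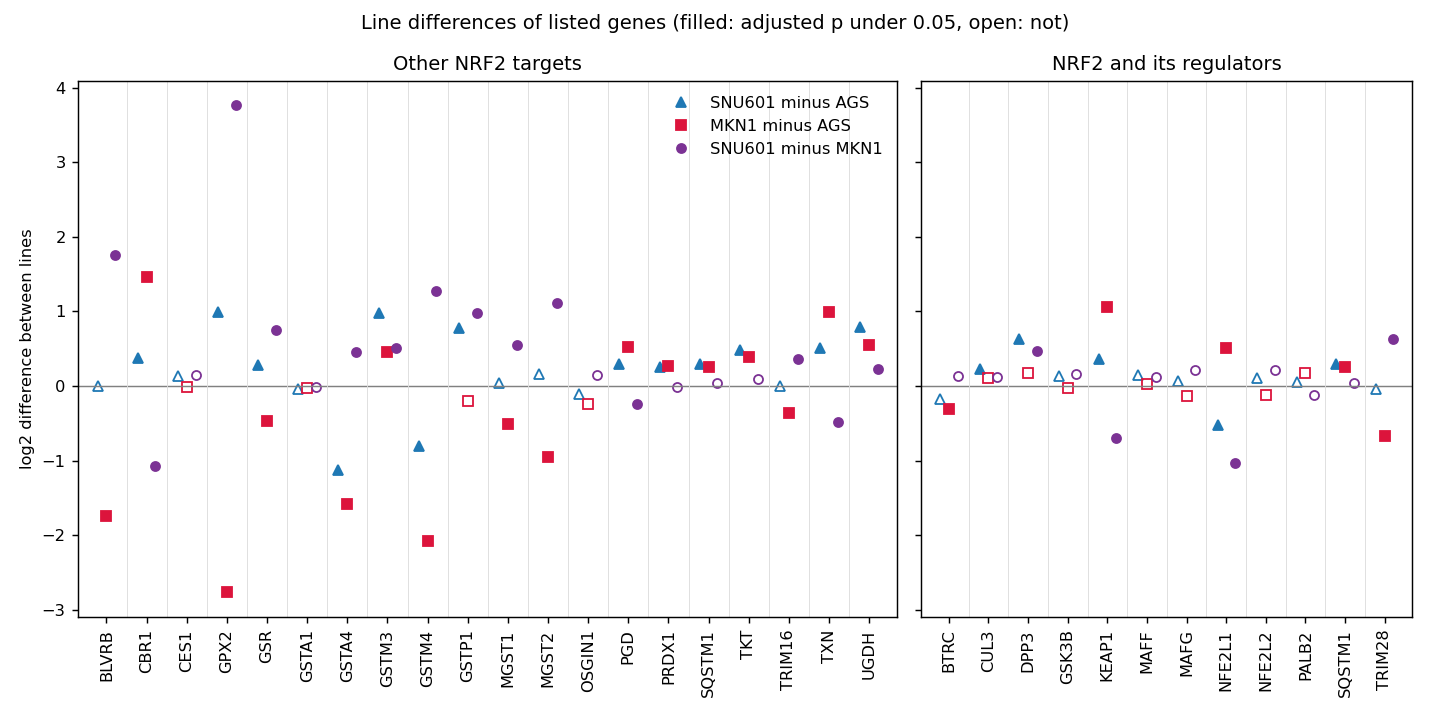
Log2 difference between lines (vertical axis) for the other NRF2 targets and for NRF2 and its regulators (genes on the horizontal axis), with 1 symbol per comparison, filled where the limma adjusted p was under 0.05. Between MKN1 and AGS, KEAP1 stands at 1.06 and GPX2 at -2.77.

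TALDO1 was set beside a list of pentose phosphate and NADPH enzymes, of which 6 of 16 listed were tested. The 6 include NNT, listed for NADPH, which was higher in MKN1 than in AGS by 0.21. Transketolase, TKT, works beside transaldolase and was higher in MKN1 and SNU601 than in AGS, by 0.39 and 0.48. TALDO1 was lower in MKN1 than in AGS where TKT was higher, so the signs of the pair were opposite there. PGD, an NADPH-producing enzyme of the oxidative branch, was also higher in MKN1 and SNU601, by 0.53 and 0.29. PGLS, the lactonase before it, was higher in MKN1 than in AGS by 0.54 and lower in SNU601 than in AGS, a log2 difference of -0.44. Of the 6 genes, 4 were higher and 0 lower between MKN1 and AGS, 2 higher and 1 lower between SNU601 and AGS, and 0 higher and 2 lower between SNU601 and MKN1. The medians were 0.30, 0.11 and -0.14 in that order. PGD and TKT belong to the list of NRF2 targets too.

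HMOX1 was set beside other genes of heme and iron, among them the biliverdin reductases BLVRA and BLVRB. BLVRB was lower in MKN1 than in AGS, a log2 difference of -1.75, while SNU601 differed from AGS by 0.01, which did not pass the test. BLVRA was higher in MKN1 than in AGS by 0.31 and lower in SNU601 than in AGS, a log2 difference of -1.17. HMOX2, the constitutive heme oxygenase, was higher in SNU601 than in AGS by 0.40, opposite in sign to HMOX1. FECH, which inserts iron to make heme, was higher in MKN1 than in AGS by 1.01. Of 4 tested genes of heme and iron, of 10 listed, 2 were higher and 1 lower between MKN1 and AGS, 1 and 1 between SNU601 and AGS, and 2 and 2 between SNU601 and MKN1, with medians of 0.04, 0.03 and -0.16. With a compound, 0 genes of this list or of the pentose phosphate list were called.

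The members were also set beside each other and beside all tested genes by Pearson's r, as a description over 12 arrays that share lines and treatments. After each line's mean was removed, r between members ran from -0.01 for HMOX1 with TALDO1 to 0.63 for SRXN1 with TXNRD1. The AGS array given JK139 held the lowest AGS level of all 4 members. Among all tested genes, the deviations most like HMOX1 were those of PGM2L1 (r = 0.954), TXN (0.932) and TBK1 (0.926). For TXNRD1 they were CCDC124 (0.911), ANGPTL8 (0.894) and GRB2 (0.892), for TALDO1 VDAC1 (0.909), FXYD1 (0.908) and YBX1 (0.896), and for SRXN1 EMC6 (0.930), C3 (0.911) and LOC613038 (0.901). Levels over the 12 arrays, which also hold the differences between the lines, were most like HMOX1 for BTBD7 (0.929), SESN1 (0.921) and CRY2 (0.920). They were most like TXNRD1 for CIAPIN1 (0.971), TALDO1 for TCF3 (0.966) and SRXN1 for KLF4 (0.894). These are the highest r among all tested genes, so they are large by selection.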

How the data were processed

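Transcripts were measured on 12 arrays, 1 per cell line and treatment. The authors deposited log2 values, made by RMA (background correction, quantile normalization and probe summary) in Affymetrix Expression Console per the submitters' processing notes. Versions and genome build: not given in the sources used here.

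Of 53617 transcript clusters 16098 (30.0%) had 1 gene symbol in the platform annotation. Each symbol was represented by its cluster of highest mean, and genes with a mean below the 40th percentile (4.61) were left out. Tests used limma 3.58.1 (R 4.3.3) with line and treatment as fixed terms (6 residual degrees of freedom), so lines pair the arrays of treatments, and Benjamini-Hochberg adjustment over 8930 genes. The number of arrays limits the precision. A member was given a direction where its unadjusted 95% interval excluded 0. The model was also run on simulated data in which, unlike here, most genes had no line difference, and no result above rests on that run.

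The members and gene lists were chosen with earlier results of these data known. Named were the members, regulators past the test (with NFE2L2, KEAP1 and BACH1), and from each other list up to 4 genes per line comparison and 2 per treatment comparison, of which some are shown. The nearest 3 genes by r were named. Lists covered other NRF2 targets, NRF2 regulators, glutathione and peroxide enzymes, pentose phosphate and NADPH, heme and iron, aryl hydrocarbon receptor targets, housekeeping genes, and epithelial and other cell markers. Alternatives covered normalization, filters, array weights, priors, the block and left-out arrays, lines or treatments. Sequences are from RefSeq GRCh38.p14.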

Additional observations from a re-analysis of the deposited data

Results flagged for a closer look

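In 12 groups of 4 arrays (4 genes in 3 lines), 3 held an array far from the others, by a gap to the nearest array divided by the group's range above Dixon's 95% critical value for 4 arrays. Chance flags about 5% of groups, and the 4 arrays of a line differ in treatment. HMOX1 in SNU601 was lowest with Rhosin, at a ratio of 0.877. SRXN1 in AGS was lowest with JK139, at 0.941, and TXNRD1 in SNU601 was lowest with JK139, at 0.863. The ratio takes no account of the size of a gap, and the log2 ranges of these groups were 0.60, 0.44 and 0.17 in that order.

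The mean response of SRXN1 to the compounds was 0.15 in SNU601, where 3 of 3 compounds were above DMSO, and -0.16 in AGS, where 0 of 3 were, a difference of 0.30. That difference between these 2 lines was not tested on its own, and limma's interaction test over the 3 lines gave an adjusted p of 0.9999. In AGS, SRXN1 differed from DMSO by -0.44 with JK139, -0.03 with JK136 and -0.01 with Rhosin. The AGS mean thus rests mostly on the JK139 array, and the differences of a line share its DMSO array.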

How the results depend on the processing

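Over the 24 alternatives that gave a comparison of lines, the members called numbered 3 to 4 between SNU601 and AGS, 3 between MKN1 and AGS and 1 between SNU601 and MKN1. The treatment and interaction counts stayed at 0 in all 183 recomputed values. Over 932 recomputed member values, a reversal was counted only where the unadjusted 95% interval of the main fit excluded 0, and 0 were counted. Values without a direction could change sign, as HMOX1 between SNU601 and MKN1 did, at -0.07 to 0.22. Over all genes, limma called 0 for every compound comparison as tested, against 1 for Rhosin minus DMSO and 2 for JK136 minus Rhosin with a trended robust prior, 1 for JK136 minus DMSO with no filter, and 3 for JK136 minus Rhosin without the MKN1 array given JK136; 0 of these were members. The fit with no replicate block (line dropped in treatment comparisons, treatment dropped in line comparisons) gave 3, 4 and 1 members for MKN1 against AGS, SNU601 against AGS and SNU601 against MKN1, and 0 for treatments. SRXN1 between SNU601 and AGS lost its call under 10 alternatives, among them repeated quantile normalization (0.23, limma adjusted p = 0.0792), no filter (0.26, 0.0718) and left-out arrays, with a range of 0.15 to 0.34 and limma adjusted p of 0.024 to 0.248. HMOX1 between MKN1 and AGS ranged from -1.13 to -0.67, and TXNRD1 from 0.77 to 0.97, and both kept their calls. With 1 array per line and treatment, the unadjusted 95% interval reached a median of 0.242 to either side for compounds and 0.210 for lines.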

Other observations

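Among glutathione and peroxide enzymes, 23 tested of 30 listed, 10 were higher and 8 lower between MKN1 and AGS, 10 and 6 between SNU601 and AGS, and 7 and 10 between SNU601 and MKN1. The shares called were 78.3%, 69.6% and 73.9% in that order, against 66.3%, 52.7% and 63.4% of all tested genes. The medians were 0.10, 0.12 and -0.20, beside 0.02, 0.05 and 0.02 over all tested genes. GSR, glutathione reductase, was lower in MKN1 than in AGS, a log2 difference of -0.47, and higher in SNU601 than in AGS by 0.28. SESN2, a stress-induced sestrin, was lower in both MKN1 and SNU601 than in AGS, with log2 differences of -1.95 and -1.08, and SESN1 likewise with -1.04 and -1.24. GPX2, GSR, PRDX1 and TXN stand in this list and in that of NRF2 targets.

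The aryl hydrocarbon receptor transcript, AHR, was higher in SNU601 than in AGS by 1.56 and than in MKN1 by 1.32. Its list (9 listed) had 3 tested genes, TIPARP, NFE2L2 and AHR itself, and NFE2L2 also stands among the NRF2 regulators. Of the 3, 2 were higher between MKN1 and AGS, 2 between SNU601 and AGS and 1 between SNU601 and MKN1, with 0 lower. AHR was called in each comparison, and between SNU601 and MKN1 it was the only gene called. The shares called were 66.7%, 66.7% and 33.3%, against 66.3%, 52.7% and 63.4% of all tested genes. The medians were 0.25, 0.63 and 0.22, beside 0.02, 0.05 and 0.02. With a compound, 0 genes of these lists were called.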
